A study of Rattus norvegicus with 3 samples.

Results

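Aquaporins, the channels that let water cross cell membranes, were followed in the inner medulla of rat kidney under lithium. They were taken as every array probe whose annotation gives 1 gene symbol beginning with Aqp, and 9 of the 5760 probes met this rule, 1 each for Aqp1 to Aqp9, out of 4390 named genes. Each of 3 two-colour arrays set RNA of rats given lithium for 1 month (red, channel 1) against RNA of control rats (green, channel 2). Arrays 1 and 2 carried pools of 2 rats per channel and array 3 carried 1 rat per channel, with different rats on each array. The labels give no strain, age, lithium dose or other agent. Nothing more is said of the control rats.

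Each aquaporin forms a pore across a membrane, and the family divides into water channels proper and aquaglyceroporins, which also pass glycerol. In the collecting duct, vasopressin acts through its V2 receptor and cyclic AMP to move aquaporin-2 into the apical membrane and to raise transcription of its gene, and water then leaves the cell through aquaporin-3 and aquaporin-4 on the basolateral side. Lithium is a known cause of nephrogenic diabetes insipidus, a failure of the duct to take up water under vasopressin, and in rats it is known to lower aquaporin-2 in the medulla.

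A value is a log ratio, lithium over control, as deposited, minus the median of its array, so that 0 is the middle of all probes. The log base was not stated, and folds are therefore given for base 10 and for base 2. The direction was not stated either. They were taken as lithium over control, the likely reading, since lithium RNA is channel 1 in the labels and red over green is the usual form. All arrays had the same dye orientation, so dye and lithium cannot be told apart. No intensities were used, so absolute levels, signal over background and the presence of the tissue's defining transcripts could not be examined, and the number of arrays limits the precision. Arrays 1 and 2 had Pearson's r of 0.624 over 5543 shared probes, arrays 1 and 3 had 0.49 over 4266, and arrays 2 and 3 had 0.152 over 4266. These correlations run across probes, which are not independent replicates.

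None of the 8 aquaporin probes with a value on all 3 arrays passed limma's adjusted p of 0.05, against 0.259% of all 4250 such probes (11 probes, 5 higher and 6 lower, or 8 higher and 16 lower without centring). With any 1 array left out, limma called 0 of the 4250. Among the 8, the means farthest from 0 were those of Aqp1, with a mean ratio below 0, and Aqp2, with a mean ratio above 0, while Aqp8 averaged −0.21 over its 2 arrays. At an unadjusted limma p of 0.05, 3 of the 8 passed (Aqp1, Aqp2 and Aqp4), where 17.3% of all probes did. Ratios above 0 on all 3 arrays were found for 2 of the 8, beside 24.8% of all probes. Ratios below 0 on all 3 arrays were found for 1 of the 8, beside 13.6% of all probes. Centred on the probes with 3 values, the aquaporin counts were again 2 and 1, and the shares of all probes were 19.5% and 18.1%.

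**Figure D1:**
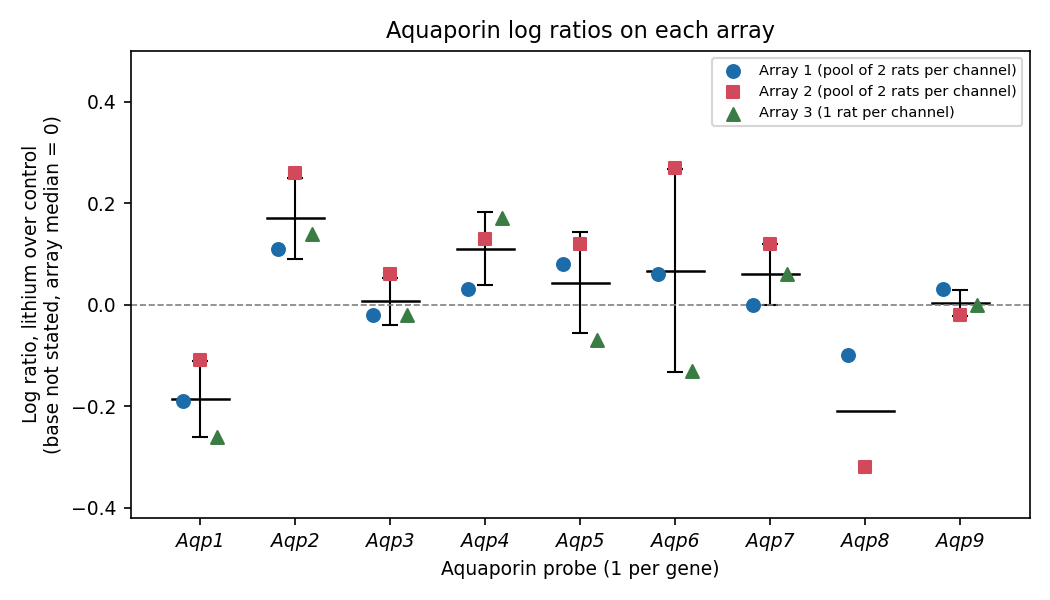
Log ratio of lithium over control (vertical axis, base not stated, array median at 0) of the 9 aquaporin probes on each of 3 arrays, with the mean as a horizontal line and the SD over 3 arrays as an error bar (none for Aqp8, which has 2 values). Aqp1 lies below 0 and Aqp2 and Aqp4 lie above 0 on every array, and Aqp6 has the widest spread.

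Aqp2, the apical water channel that vasopressin controls, had ratios above the array median on all 3 arrays. Its values were 0.11, 0.26 and 0.14 on arrays 1, 2 and 3. The pooled arrays gave both the lowest and the highest of these, and the single-rat array lay between them. The mean of 0.17 ± 0.08 (SD, n = 3) corresponds to 1.48-fold in base 10 (95% limma interval 1.15 to 1.9) or 1.13-fold in base 2 (1.04 to 1.21). The limma adjusted p was 0.167, so Aqp2 did not pass. Within the arrays it ranked at percentiles 89.9, 99.4 and 90.2 of all ratios, and at 88.5, 99.2 and 90.2 among the probes with 3 values. Read the other way round, as control over lithium, the same 3 values would place Aqp2 below 0 on every array, and the deposited table does not settle which reading holds. Of 13 other ways of processing, Aqp2 passed in 1, array weights estimated by limma (adjusted p = 0.0134, mean ratio 0.12). That setting gave array 1 a weight of 4.69, against 0.358 and 0.595 for arrays 2 and 3, and called 1252 probes.

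Aqp1, the constitutive water channel of the descending thin limb, of descending vasa recta and of red blood cells, had the lowest mean of the 8. Its values were −0.19, −0.11 and −0.26 on arrays 1, 2 and 3, with the lowest on the single-rat array. All 3 lay below every value of Aqp2. The mean of −0.19 ± 0.08 (SD, n = 3) corresponds to 0.651-fold in base 10 (95% limma interval 0.508 to 0.832) or 0.879-fold in base 2 (0.816 to 0.946). The limma adjusted p was 0.146 and the probe did not pass. It ranked at percentiles 8.4, 26.1 and 1.8 of all ratios of the arrays. Array 3 has fewer values than the others. Among only the probes with a value on all 3 arrays, the percentiles of Aqp1 were 2.9, 13.9 and 1.8. Its rank was least extreme on array 2, where 9.73% of all values lay more than 0.3 below the median, against 3.46% on array 1 and 1.03% on array 3. The call depended on limma's shared variance. With 11 probes left out whose 3 centred ratios were exactly equal, a setting chosen after seeing the data, Aqp1 passed with an adjusted p of 0.0451, and it passed with a robust prior (adjusted p = 0.0414) and with array weights (adjusted p = 0.00229) as well.

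The bases before the start of Aqp2 and Aqp1 are shown because these genes had the widest mean gap among the 8 with 3 values and differ in whether vasopressin and cyclic AMP control them. Each line gives the 250 bases before the annotated start, 5′ to 3′ on the strand of the gene, from RefSeq on GRCr8. Both genes are on the plus strand, at chr7:132590036-132590285 for Aqp2 and chr4:85812534-85812783 for Aqp1. Capitals mark matches to TGACG (the half-site bound by cyclic AMP response element factors), TGGAAA (a core bound by NFAT factors) or AGATAA (a core bound by GATA factors), searched on both strands.
Aqp2: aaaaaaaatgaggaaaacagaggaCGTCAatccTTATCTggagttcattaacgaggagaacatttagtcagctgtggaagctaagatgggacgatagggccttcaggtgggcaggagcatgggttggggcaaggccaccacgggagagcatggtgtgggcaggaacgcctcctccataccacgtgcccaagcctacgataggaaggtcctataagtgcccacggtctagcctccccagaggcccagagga
Aqp1: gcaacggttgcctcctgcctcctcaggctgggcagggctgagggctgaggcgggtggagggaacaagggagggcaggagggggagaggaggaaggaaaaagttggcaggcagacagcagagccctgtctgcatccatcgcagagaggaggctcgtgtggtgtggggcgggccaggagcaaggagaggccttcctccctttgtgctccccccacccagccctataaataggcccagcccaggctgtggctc
In Aqp2, CGTCA, the reverse complement of TGACG, begins 226 bases before the start, and TTATCT, the reverse complement of AGATAA, begins 217 bases before it. The letters searched are not in the Aqp1 window. Of 33469 rat promoter windows of this length, 18.2% held TGACG, 19.7% held TGGAAA and 10.3% held AGATAA on either strand. These matches are descriptions of the sequence and say nothing of factor binding in these rats. The table held such windows for 8 of the 9 aquaporin genes, and Aqp7 was not among them.

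Aqp4, a basolateral exit channel of medullary collecting duct cells, also had ratios above 0 on all 3 arrays. Its values were 0.03, 0.13 and 0.17 on arrays 1, 2 and 3, the highest on the single-rat array. The mean was 0.11 ± 0.07 (SD, n = 3), a fold of 1.29 if the base is 10 and of 1.08 if it is 2, with a limma adjusted p of 0.273. Aqp4 ranked at percentiles 63.1, 85.4 and 94, or 57.6, 81.3 and 94 among the probes with 3 values. It did not pass in any of the 13 other settings.

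Aqp3, the other basolateral exit channel and an aquaglyceroporin, stayed near the array median. Its values were −0.02, 0.06 and −0.02, on both sides of 0. The mean was 0.01 ± 0.05 (SD, n = 3) with a 95% limma interval of −0.092 to 0.105, or 0.809 to 1.27-fold in base 10 and 0.938 to 1.08-fold in base 2 (limma adjusted p = 0.957). Any difference within these bounds remains possible, and the sign of the mean turned in 4 of 13 settings. The bounds are no limit of detection, as the means of Aqp1 and Aqp2 lay outside them and did not pass.

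Aqp6, a channel of intracellular vesicles of acid-secreting intercalated cells that also conducts anions, varied most among the 8. Its values were 0.06, 0.27 and −0.13 on arrays 1, 2 and 3. It was the highest aquaporin on array 2, at percentile 99.5, and stood at percentile 12.1 on array 3. The mean of 0.07 ± 0.20 (SD, n = 3) had a limma adjusted p of 0.676, and without array 2 it was −0.035. The arrays thus differed more among themselves than their mean did from 0.

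The aquaporins better known from other tissues gave no call. Aqp5, a channel of secretory glands and lung, had values of 0.08, 0.12 and −0.07 and a mean of 0.04 ± 0.10 (SD, n = 3, limma adjusted p = 0.695). Aqp7, an aquaglyceroporin of fat and of the straight proximal tubule, had values of 0, 0.12 and 0.06 and a mean of 0.06 ± 0.06 (SD, n = 3, adjusted p = 0.522). None of these values lay below 0 for Aqp7, whereas Aqp5 changed sign on the single-rat array. Aqp9, an aquaglyceroporin of liver, had values of 0.03, −0.02 and 0 and a mean of 0.00 ± 0.03 (SD, n = 3, adjusted p = 0.976), the smallest spread of the family. Aqp8, a channel known from pancreas, colon and testis, had values of −0.1 and −0.32 on arrays 1 and 2 and none on array 3. Its percentiles were 20 and 8.9, or 11.8 and 2.4 against the probes with 3 values. Its 2 values lay below all those of the other aquaporins on the same array except Aqp1 on array 1. On array 3, 25.6% of all probes lacked a value as Aqp8 did, against 3.1% and 1.4% on arrays 1 and 2. In a limma fit of the 5575 probes with at least 2 arrays, its mean was −0.21, or 0.617-fold in base 10 and 0.865-fold in base 2, with an adjusted p of 0.222.

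**Figure D2:**
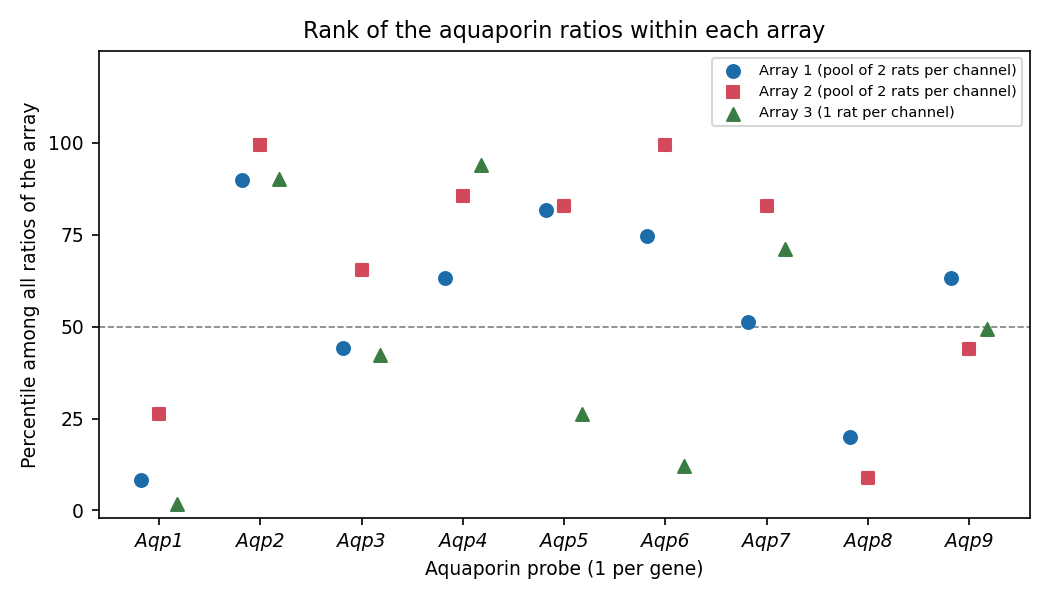
Percentile of each aquaporin ratio among all ratios of its array (vertical axis, 0 to 100; ties count by their middle), by probe and array. Aqp2 stands between percentiles 89.9 and 99.4 on all arrays and Aqp1 between 1.8 and 26.1, whereas Aqp6 spans 12.1 to 99.5.

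Over all 9 probes the family median was 0.03 on array 1 and 0.12 on array 2, and it was −0.01 over 8 probes on array 3. All probes have a median of 0 by construction. The median of the 8 mean ratios was 0.05, beside 0.01 over the 4250 probes. The spread between aquaporins was an SD of 0.094, 0.186 and 0.142 on arrays 1, 2 and 3, beside 0.135, 0.198 and 0.115 over all probes. The median of the means was 0.01 without array 2 and 0.07 without array 3.

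Differences between members within an array do not change when 1 value is subtracted from a whole array, and they showed Aqp1 below each of the other 7 on every array. Centring by print block, which does change them, left the mean of Aqp1 below those of the other 7, with Aqp2 minus Aqp1 at 0.318 and Aqp2 minus Aqp3 at 0.125 (a setting chosen after seeing the data). Aqp2 minus Aqp1 was 0.3, 0.37 and 0.4 on arrays 1, 2 and 3, with a mean of 0.36 ± 0.05 (SD, n = 3). This is the widest mean gap of the 28 pairs, and it corresponds to 2.27-fold in base 10 or 1.28-fold in base 2. Aqp4 minus Aqp1 was 0.22, 0.24 and 0.43, with a mean of 0.30 ± 0.12 (SD, n = 3). Between the collecting duct channels, Aqp2 minus Aqp3 was 0.13, 0.2 and 0.16, with a mean of 0.16 ± 0.03 (SD, n = 3). So the apical channel stood above the basolateral Aqp3 on each array by more than the spread between arrays. Aqp2 and Aqp4 were not separated, with differences of 0.08, 0.13 and −0.03 and a mean of 0.06 ± 0.08 (SD, n = 3). Of the 28 pairs, 14 kept 1 sign on all 3 arrays. Their exact two-sided sign-flip p was 0.25 each, the smallest that 3 arrays allow, and 0.5 after Benjamini-Hochberg adjustment over the 28 pairs, so no pair could pass.

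In the order of mean ratios, Aqp2 came first, followed by Aqp4, Aqp6, Aqp7, Aqp5, Aqp3, Aqp9 and, last, Aqp1. Neighbours in this order differed by less than 1 SD of their within-array difference, with Aqp9 and Aqp1 as the exception. Aqp9 minus Aqp1 was 0.22, 0.09 and 0.26, a mean of 0.19 ± 0.09 (SD, n = 3).

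Aqp2, Aqp5 and Aqp6 lie next to each other on rat chromosome 7, with Faim2, an inhibitor of Fas-mediated death, on the other side of Aqp2. On array 1 all lay above 0, with Aqp2 at 0.11, Aqp5 at 0.08, Aqp6 at 0.06 and Faim2 at 0.03. Aqp2, Aqp5, Aqp6 and Faim2 stood on both sides of 0 on array 3 only. On array 3 Aqp2 stood at 0.14 while Aqp5 stood at −0.07, Aqp6 at −0.13 and Faim2 at −0.07. On array 2 all lay above 0, with Aqp2 at 0.26, Aqp5 at 0.12, Aqp6 at 0.27 and Faim2 at 0.16. Asic1, 2 places beyond Aqp6, had probes on both sides of 0 on arrays 1 and 2. One probe read −0.18 and −0.19 on arrays 1 and 2 and had no value on array 3. Its other probes read 0.04, 0.12 and −0.12, and 0.01, −0.08 and −0.13, on arrays 1, 2 and 3. Aqp3 and Aqp7 are neighbours on chromosome 5, and Aqp7 minus Aqp3 was 0.02, 0.06 and 0.08 on the 3 arrays.

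Genes that carry the vasopressin signal to aquaporin-2 gave no call. Among 31 genes of vasopressin receptors and cyclic AMP signalling (43 probes with 3 values), 0 passed the limma adjusted p of 0.05. Of the 43 probes, 27 had a mean above 0, 15 below and 1 at 0, where 57.1% of all probes lay above 0. Centred on the probes with 3 values, the counts were 21 above and 22 below, where 48.2% of all probes lay above. The median was 0.01, as over all probes. Probes of Adcy8, Gnas, Pde1c, Pde3b and Pde4d without a value on array 3 were not fitted. They read −0.08, −0.32, 0.02, −0.33 and −0.22 on array 1. On array 2 they read −0.2, −0.93, −0.45, −0.28 and −0.26. Avpr2, the V2 receptor gene, had values of 0.09, 0.03 and 0.27 and a mean of 0.13 ± 0.12 (SD, n = 3, limma adjusted p = 0.282). The smallest p-values belonged to Pde4b, a phosphodiesterase that breaks down cyclic AMP, at −0.28 ± 0.05 for 1 of its 3 probes (adjusted p = 0.0558) and Adcy2, an adenylyl cyclase, at −0.21 ± 0.06 (adjusted p = 0.119). The other Pde4b probes stood at 0.11 ± 0.05 (adjusted p = 0.243) and −0.02 ± 0.06 (adjusted p = 0.847), so the probes of this gene disagreed in sign. Next came the inhibitory G protein subunit gene Gnai3 at 0.18 ± 0.05 (adjusted p = 0.135) and the protein kinase A regulatory subunit gene Prkar2b at −0.36 ± 0.32 (adjusted p = 0.187). The Prkar2b mean rests mostly on array 2, where it read −0.73, against −0.2 and −0.15 on arrays 1 and 3.

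Genes of aquaporin-2 vesicle traffic and of aquaporin transcription gave no call either. Of 45 traffic probes (43 genes), 32 had a mean above 0 and 13 below, where 57.1% of all probes lay above. Their median was 0.03. When the arrays were centred on the probes with 3 values, the counts were 25 above and 19 below, beside 48.2% of all probes above. Dynll1, a dynein light chain, had a mean of 0.17 ± 0.03 (SD, n = 3; adjusted p = 0.135 by limma), and the endosomal genes Rab7a and Rab4a stood at 0.14 ± 0.04 (adjusted p = 0.187) and 0.16 ± 0.12 (adjusted p = 0.207). Lgals3, galectin-3, stood at 0.14 ± 0.05 (adjusted p = 0.192). Of 25 probes of transcription regulators (21 genes), 21 had a mean above 0 and 4 below, where 57.1% of all probes lay above. Their median was 0.05. Centred on the probes with 3 values, the counts were 17 and 8, beside 48.2% of all probes above. Pparg, a nuclear receptor, stood at −0.31 ± 0.12 (adjusted p = 0.0844) with values of −0.29, −0.43 and −0.2. Atf2, a cyclic AMP response element factor gene, stood at 0.14 ± 0.04 (adjusted p = 0.187) for 1 probe and 0.083 ± 0.025 (adjusted p = 0.343) for another. The ETS factor gene Elf1 stood at 0.13 ± 0.06 (adjusted p = 0.219) for 1 probe. Its other probes stood at 0.09 ± 0.135 (adjusted p = 0.46) and 0.073 ± 0.12 (adjusted p = 0.523), both below 0 on array 3. Ctnnb1, beta-catenin, stood at 0.13 ± 0.07 (adjusted p = 0.229) and Gsk3b, a kinase that lithium inhibits, at 0.05 ± 0.08 (adjusted p = 0.596).

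Most markers of the principal cell, the collecting duct cell that carries Aqp2, Aqp3 and Aqp4, had mean ratios above 0, which would be below 0 if the ratios run control over lithium. Apart from the aquaporins, 16 of 17 probes (13 genes) had a mean above 0, where 57.1% of all probes did, and 12 of 17 were above 0 on all 3 arrays, where 24.8% of all probes were. Centred on the probes with 3 values, 14 of the 17 had a mean above 0, where 48.2% of all probes did, and 10 of the 17 were above 0 on all 3 arrays, where 19.5% were. The medians of these 17 were 0.09, 0.13 and 0.12 on arrays 1, 2 and 3. Hsd11b2, which inactivates glucocorticoids, passed with values above 0 of 0.52, 0.57 and 0.37 (limma adjusted p = 0.0217). Krt19, an epithelial keratin, passed with values above 0 of 0.44, 0.59 and 0.3 (adjusted p = 0.0433). The other 18 of the 20 probes did not pass. Aqp2 at 0.17 and Aqp4 at 0.11 stood on either side of the list's median of 0.12, and Aqp3 stood near its low end with Krt8 and Krt18, which were within 0.01 of 0. The vasopressin-dependent urea transporter gene Slc14a2 had 2 probes, at 0.10 ± 0.06 (adjusted p = 0.277) and 0.09 ± 0.06 (adjusted p = 0.322). In these bulk samples a change in the number of cells of a type and a change in RNA per cell cannot be told apart, and the part of cell content in the Aqp2 and Aqp4 ratios was not tested.

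**Figure D3:**
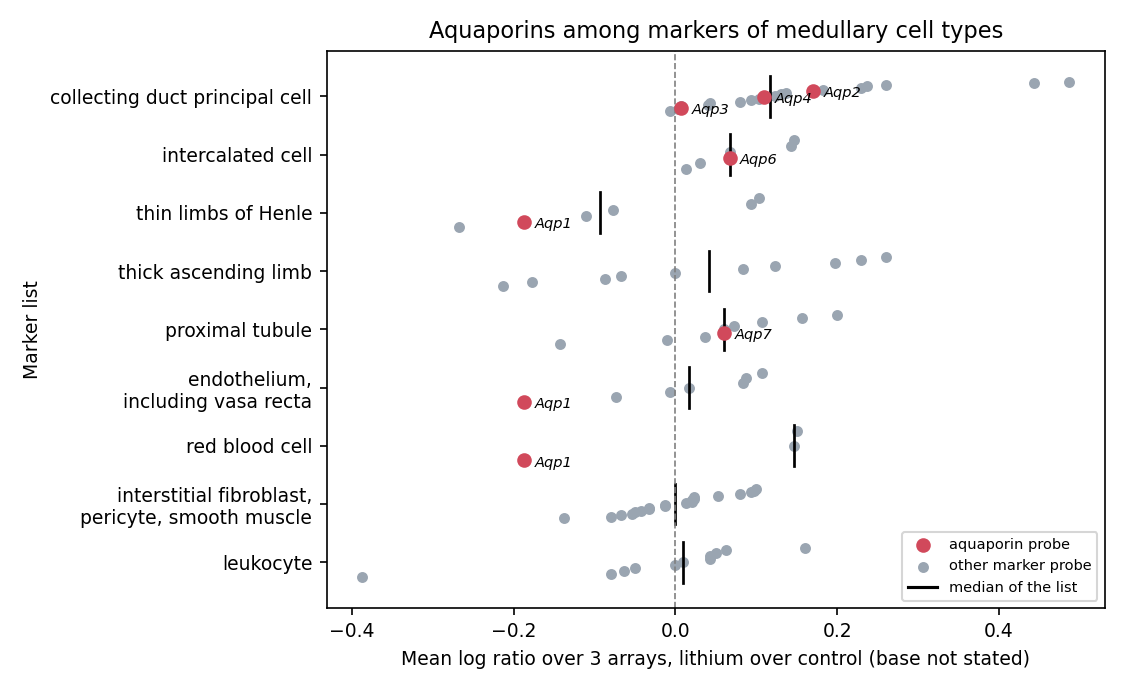
Mean log ratio of lithium over control over 3 arrays (horizontal axis, base not stated) of every marker probe with 3 values, by cell type list, with aquaporin probes in red, other probes in grey and the list median as a black line. Aqp2, Aqp3 and Aqp4 lie among the principal cell probes, of which 19 of 20 have a mean above 0 (16 when centred on the probes with 3 values), and Aqp1 is the lowest probe of the endothelial and red blood cell lists.

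The thin limb probes lay on both sides of 0. Of 6 probes (5 genes), Aqp1 included, 4 lay below 0 on all 3 arrays, where 13.6% of all probes did. Without Aqp1, 3 of 5 probes (4 genes) did. Centred on the probes with 3 values, the count with Aqp1 was again 4 of 6, beside 18.1% of all probes. The 4 were Akr1b1, aldose reductase, Aqp1, the ectoenzyme gene Bst1 and the small heat shock protein gene Cryab. Akr1b1 stood at −0.27 ± 0.05, Bst1 at −0.11 ± 0.05 and Cryab at −0.08 ± 0.08 (SD, n = 3). Limma adjusted p-values were 0.0682 for Akr1b1, 0.146 for Aqp1, 0.249 for Bst1 and 0.43 for Cryab, so none passed. The remaining 2 probes were those of Slc14a2, which the collecting duct also expresses, with means of 0.10 and 0.09. How far any gene of this list is particular to the thin limb was not tested. The list medians without Aqp1 were −0.06, −0.01 and −0.16 on arrays 1, 2 and 3.

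Markers of the other cell types that carry Aqp1 lay on both sides of 0. Without Aqp1, the 6 endothelial probes (5 genes) had medians of 0.05, 0.075 and −0.025 on arrays 1, 2 and 3. Slc14a1, the urea transporter of descending vasa recta and red blood cells, had values of 0.1, 0.08 and 0.08. Plvap, the diaphragm protein gene of fenestrated endothelium, had values of −0.14, 0.04 and −0.12 and a mean of −0.07 ± 0.10 (SD, n = 3, limma adjusted p = 0.485). Kdr, a receptor for vascular endothelial growth factor, had values of −0.03, 0.04 and −0.03. The red blood cell genes Hba-a1, an alpha-globin, and Slc4a1, the anion exchanger that intercalated cells also express, stood at 0.15 ± 0.06 and 0.15 ± 0.09 (SD, n = 3). A second Slc4a1 probe disagreed, with −0.12 and −0.27 on arrays 1 and 2 and no value on array 3. Alas2, also of the red blood cell list, read −0.06 and −0.24 on arrays 1 and 2 and had no value on array 3. Pecam1 and Vwf, of the endothelial list, likewise had none. Pecam1 read −0.06 and 0.07 on arrays 1 and 2, and Vwf read −0.03 and −0.08. Of the proximal tubule markers without Aqp7, 6 of 8 probes with 3 values had a mean above 0, where 57.1% of all probes did. Centred on the probes with 3 values, the count was again 6, beside 48.2% of all probes. The medians of the 8 were 0.05, 0.175 and 0.025 on arrays 1, 2 and 3. Cubn, Gatm and Slc13a1, also of this list, had no value on array 3. They read −0.22, −0.31 and −0.22 on array 1 and −0.36, −0.29 and −0.19 on array 2. The part of thin limb, vascular or blood content in the Aqp1 ratio was not tested.

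Aqp6 was highest on array 2 and lowest on array 3, and the intercalated cell markers had this order too, as did 9 of the other 11 gene lists. Without Aqp6, the 5 probes (3 genes, Slc4a1, Kit and Car2) had medians of 0.05, 0.19 and −0.03 on arrays 1, 2 and 3. Car2, the cytosolic carbonic anhydrase, read 0.05, 0.11 and −0.12. None of these probes passed. Slc26a4, also of this list, read −0.25 and −0.2 on arrays 1 and 2 and had no value on array 3. The second Slc4a1 probe, likewise without an array 3 value, read −0.12 and −0.27. Of the 16 genes listed for this cell type, 5 were on the array, Aqp6 included. The part of intercalated cell content in the Aqp6 ratios was not tested.

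The marker lists that held no aquaporin had medians near 0. The 20 interstitial and smooth muscle probes (14 genes) had a median of 0 over the 3 arrays, the 11 leukocyte probes (9 genes) one of 0.01, and the 10 thick ascending limb probes (5 genes) one of 0.04. The thick limb probes lay on both sides of 0. The list holds Kcnj1, a potassium channel gene shared with the principal cell, at 0.26 ± 0.09 for its highest probe (SD, n = 3). Its lowest gene was Ppp1r1a at −0.21 ± 0.10, and Umod, uromodulin, stood at −0.18 ± 0.19, both below 0 on all 3 arrays.

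Genes whose 3 ratios lay nearest to an aquaporin's were found by Euclidean distance over the 3 arrays. Nearest to Aqp2 were the homeobox gene Isl2 and the nuclear export gene Xpo1, both at a distance of 0.025, and the receptor kinase gene Ret at 0.03. Nearest to Aqp1 were the glucose transporter gene Slc2a3 at 0.025, the sterol pathway gene Hsd17b7 at 0.044 and the potassium channel gene Kcnb2 at 0.046. Within a distance of 0.05 there were 6 named probes around Aqp2 and 3 around Aqp1, against 139 around Aqp3, whose ratios lie where probes are dense. Around Aqp6 there were 0, its nearest being Gnas, the stimulatory G protein gene, at 0.051. With 3 arrays such nearness describes these values only.

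**Figure D4:**
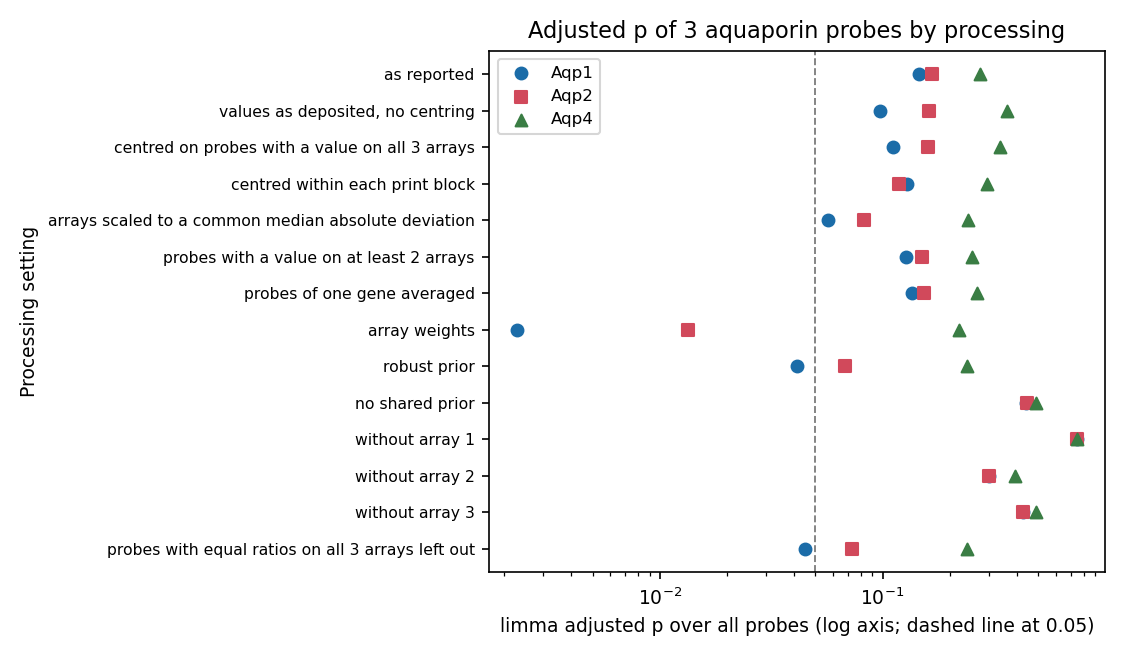
Limma adjusted p (horizontal log axis, dashed line at 0.05) of Aqp1, Aqp2 and Aqp4 in the reported fit and in 13 other processing settings; where symbols coincide, the last drawn covers the others. Aqp1 lies left of the line in 3 settings, Aqp2 in 1 and Aqp4 in 0.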

How the data were processed

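Values were log ratios deposited by the authors with 2 decimals for 5760 probes on 3 arrays. The scanner, background correction, normalization, spot filter and log base are not given in the sources used here. Per the labels, lithium RNA was red on all arrays. Probes were named from the platform's public annotation (5064 with 1 gene symbol, 9 with several, 687 not listed), and gene IDs of 5043 were found in RefSeq's GRCr8 table, with 0 symbols changed. Array medians of −0.02, −0.04 and 0 were subtracted, and 4250 probes with 3 values were fitted one by one with limma 3.58.1 (R 4.3.3; intercept only, eBayes, two-sided, Benjamini-Hochberg, adjusted p of 0.05). The limma fit was tested on simulated data.

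The labels do not say more of the rats, so p-values measure the spread between these arrays, each of different rats. Members and gene lists were chosen with earlier results of these data known. Named were all aquaporins, up to 4 probes with the smallest p per pathway list, Avpr2, Slc14a2, Gsk3b and Hsd11b2, the 3 nearest genes per aquaporin and some chromosomal neighbours (up to 3 each side). Marker genes beside the highest and lowest of a list, and list probes without a value on array 3, were named after their values were seen. The same holds for Krt8, Krt18, Cryab, Bst1, Car2, Slc14a1, Plvap, Kdr and Umod. Alternatives were other centrings, scaling, at least 2 arrays, gene means, array weights, a robust or no prior, an adjusted p of 0.10, each array left out and, chosen after seeing the data, probes with equal ratios left out and member differences centred by print block. Figures used Python 3.11.15 and matplotlib 3.10.9.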

Additional observations from a re-analysis of the deposited data

How the results depend on the processing

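Aqp1, Aqp2, Aqp4, Aqp5 and Aqp7 kept the sign of their means under 13 other settings, and adjusted p ran from 0.00229 to 0.745 for Aqp1 and from 0.0134 to 0.745 for Aqp2. Aqp1 passed, at −0.192 with array weights, −0.187 with a robust prior and −0.187 with equal-ratio probes left out, and Aqp2 passed at 0.123 with array weights. The means of Aqp3 and Aqp9 turned to −0.013 and −0.017 without centring and to −0.01 and −0.013 when centred on complete probes, and Aqp3 to −0.015 with array weights. With array weights Aqp4 read 0.051. Leaving out an array gave 0.08 to 0.15 for Aqp4, 0.005 to 0.1 for Aqp5, 0.03 to 0.09 for Aqp7, −0.02 to 0.02 for Aqp3, −0.035 to 0.165 for Aqp6 and −0.01 to 0.015 for Aqp9. With every sign turned, Aqp1 to Aqp7 read 0.187, −0.17, −0.007, −0.11, −0.043, −0.067 and −0.06, and Aqp9 read −0.003. The 11 calls became 24 without centring, 20 centred on complete probes, 22 centred by print block, 115 with scaling, 43 with at least 2 arrays, 17 with gene means, 1252 with array weights, 135 with a robust prior, 145 with equal-ratio probes left out, 39 at an adjusted p of 0.10, and 0 without any 1 array (183 to 668 at an unadjusted limma p of 0.05). Equal ratios, which values of 2 decimals allow, lowered limma's prior degrees of freedom to 5.28, against 16.46 without those 11 probes.

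Among the differences between members, leaving out an array gave −0.015 to 0.145 for Aqp6 minus Aqp3, −0.035 to 0.03 for Aqp3 minus Aqp9, −0.02 to 0.125 for Aqp4 minus Aqp5, −0.085 to 0.135 for Aqp4 minus Aqp6, −0.04 to 0.065 for Aqp6 minus Aqp5, −0.04 to 0.065 for Aqp7 minus Aqp5, −0.01 to 0.095 for Aqp5 minus Aqp9, −0.065 to 0.105 for Aqp6 minus Aqp7 and −0.05 to 0.16 for Aqp6 minus Aqp9, and scaling gave −0.005 for Aqp3 minus Aqp9 and −0.01 for Aqp6 minus Aqp7, and centring by print block gave −0.023 for Aqp5 minus Aqp3 and −0.01 for Aqp5 minus Aqp9 and put Aqp4, Aqp6 and Aqp7 at the same mean, 0.09. The other pairs kept their sign under these settings. Each array's ratio already is a lithium and control pair, so the limma fit of the ratios against 0 is the paired comparison. With 1 group of such ratios no replicate block could be fitted.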
